A study of Schizophyllum commune with 6 samples.

Results

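Wild type strains of the split-gill mushroom Schizophyllum commune were compared by RNA sequencing of mycelium: E6, with mating type A4,6 and B2,1, against 12-43, with A3,5 and B2,2. The comparison uses 4 of the 6 libraries of the study, 2 of each strain, chosen by their labels, and all 14652 gene models. The other 2 libraries come from a knockout of the dynein heavy chain gene dhc2 with the mating type of 12-43, and serve here to estimate the spread and as a further level to read beside the wild types. All strains were kept on solid CYM medium at 28 °C and grown for 3 days on cellophane. The strain labels call every sample a monokaryon, a mycelium with 1 kind of nucleus, while the growth protocol speaks of mycelium from a mating interaction, and the labels do not settle which applies. Each strain is 1 isolate, so mating type and the rest of the genetic background cannot be told apart. The labels do not state separate cultures for the replicates, and the p-values below therefore rest on a spread between libraries that may be technical.

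In this fungus the A locus encodes homeodomain proteins and the B locus encodes small lipopeptide pheromones and the receptors that detect them. Monokaryons that differ at both loci can form a dikaryon, in which each cell keeps a nucleus from either parent and which can go on to make fruiting bodies. Hydrophobins are small secreted proteins that assemble into water-repellent films. SC3 coats aerial hyphae, whereas SC1, SC4 and SC6 are known from the dikaryon and its fruiting bodies.

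The values are RPKM, reads scaled by the length of the model and the depth of the library, and the reads behind them could be recovered. The depth denominators were 14054525 and 8769918 reads for 12-43, 9210239 and 13012283 for E6, and 14372979 and 13857189 for the knockout. At these depths 3 reads in a model of 1 kb, the most that a value of 0 allows, come to 0.209 to 0.342 RPKM. Replicates correlated at 0.989 for 12-43 and 0.992 for E6 across genes, which are not independent replicates, and an E6 library correlated with a 12-43 library at 0.855 to 0.867. Log2 ratios between replicates had an SD of 0.356 for 12-43 and 0.296 for E6. It was smaller for the knockout, at 0.217, and the knockout enters the shared spread of the fit. The quality reports list the 5-base word GAAGA as enriched in 12-43 replicate 1 and in both knockout libraries, but not in 12-43 replicate 2 or in E6. With that split as a covariate, E6 is compared with 12-43 replicate 2 alone. RPKM below are as deposited, and log2 differences are E6 minus 12-43 on the scaled log2(RPKM + 0.5) scale, with adjusted p-values from limma over all tested models.

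Most tested models were called as different between the strains, mostly by modest amounts. Both strains were read on the same gene models, so at any model expression and diverged sequence cannot be told apart. Of 12484 tested models, limma called 7420 (59.4%) at an adjusted p under 0.05, of which 3787 (30.3%) were higher and 3633 (29.1%) lower in E6. A fit of only the 4 wild-type libraries called 6663, of which 3449 were higher and 3214 lower. With the split in the quality reports as a covariate 6590 were called, and 6282 of them were among the 7420. Of the calls 51.0% were higher in E6, against 45.8% without scaling and 53.1% with upper-quartile scaling. Of all calls 27.2% were under 1.5-fold and 30.9% were between 1.5- and 2-fold. At 2-fold or more, 1785 models (14.3% of those tested) were higher and 1320 (10.6%) lower. At 8-fold or more there were 283 higher and 200 lower. The 2 values of E6 lay wholly above or below the 2 of 12-43 in 79.2% of tested models. A lack of overlap is therefore common here and sets no single gene apart.

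**Figure D1:**
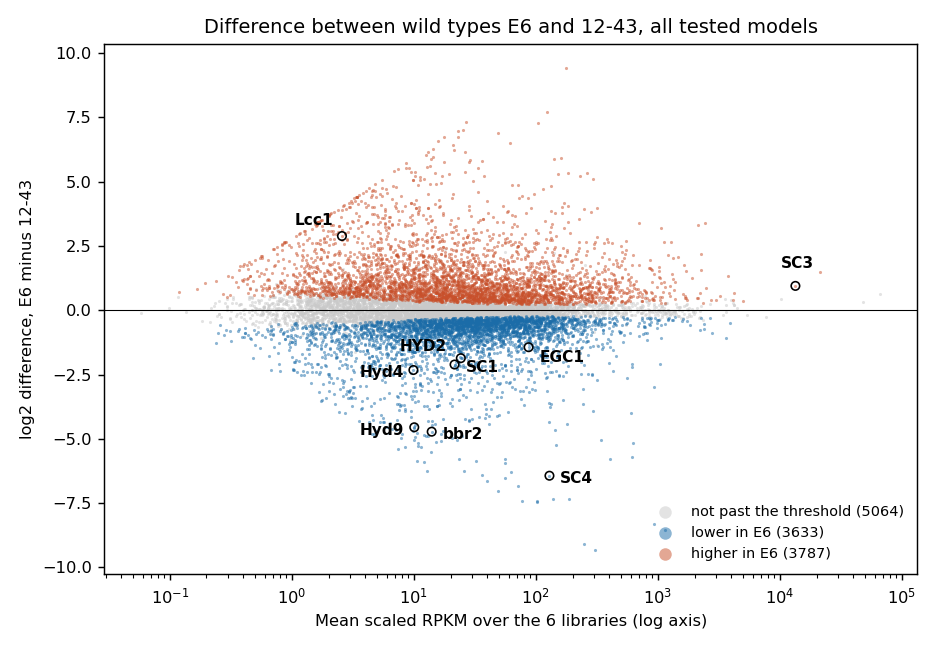
Difference between the wild types for each of the 12484 tested models, with mean scaled RPKM over the 6 libraries on a log x axis and the log2 difference E6 minus 12-43 on the y axis. Orange points are the 3787 models called higher in E6, blue points the 3633 called lower, and grey points the rest. SC3 lies at the abundant end above 0, and SC4, Hyd9 and bbr2 lie more than 4 log2 units below it.

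Calls were spread over the whole range of expression. The called share rose from 44.0% among models at a mean of up to 1 RPKM to 67.8% between 100 and 300 RPKM. Among the 165 models above 1000 RPKM it was 46.7%. The RefSeq gene table of the reference strain, used for names, paired 39 models with a symbol, and 35 of these were tested. Of the 35, 21 were lower in E6, 5 were higher and 9 did not pass, with a median log2 difference of -0.62. Over all tested models 29.1% were lower and 30.3% higher, with a median of -0.0044. B mating-type genes made up 13 of the 35, with 10 of the 21 lower and 2 of the 5 higher. Most of these named genes belong to a few families, described next.

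Hydrophobins were mostly lower in E6, and the most abundant of them was higher. Of 12 hydrophobin genes with a symbol, 9 had enough reads to test: 6 were lower, 1 was higher and 2 did not pass, with a median log2 difference of -1.86. Over all tested models 29.1% were lower and 30.3% higher, with a median of -0.0044. Hyd3, Hyd7 and Hyd8 had at most 10 reads in any library and were not tested.

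SC4, which lines the air channels of fruiting bodies, showed the largest difference of the family. It was at 251 and 509 RPKM in 12-43, at 3.23 and 3.66 RPKM in E6, and at 8.08 and 5.37 RPKM in the knockout. Both 12-43 libraries were high and the other 4 were low, with no overlap. The log2 difference was -6.43 (SE 0.34, limma adjusted p = 6.37e-06), and it was -6.98 with the covariate. SC1, also known from the dikaryon, was at 29.8 and 57.7 RPKM in 12-43 and at 7.57 and 10.01 RPKM in E6, with 12.7 and 12.2 RPKM in the knockout. The E6 libraries again lay below both 12-43 libraries, by a log2 difference of -2.11 (SE 0.31, limma adjusted p = 0.000896). SC6, the last of these dikaryon hydrophobins, was at 2.68 and 3.47 RPKM in 12-43 and at 4.28 and 4.54 RPKM in E6. Its E6 values were the higher ones, and the log2 difference of 0.54 (95% interval 0.03 to 1.04, limma adjusted p = 0.0657) did not pass. It passed without 12-43 replicate 2 (adjusted p = 0.0373, limma) and with replicate number as a block (adjusted p = 0.041, limma).

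These 3 genes were fixed as markers of dikaryotic mycelium, which the protocol's wording would allow. SC7 and SC14 were planned as markers too, but no model was matched to either. Of the 3, 2 were lower in E6 and none higher, where 29.1% of all tested models were lower and 30.3% higher. The remaining one, SC6, had its higher values in E6 and did not pass. The summed level of the 3 genes was 284 and 571 RPKM in 12-43, 15.1 and 18.2 RPKM in E6, and 24.2 and 22.7 RPKM in the knockout. Most of the sum in 12-43 came from SC4 alone, at 251 and 509 RPKM, so the sum does not show SC6. The sum was thus high in both 12-43 libraries, which the labels call monokaryotic like the rest, and none of the 3 markers was at 0 in any group. In such bulk RNA, fewer cells of a kind and less RNA per cell cannot be told apart. The part of dikaryotic cells in the other differences between the strains was not tested.

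SC3, the hydrophobin of aerial hyphae, was at 10907 and 13868 RPKM in 12-43 and at 21811 and 23009 RPKM in E6. It was one of the most abundant transcripts in both strains, and was lowest in the knockout, at 4842 and 4704 RPKM. E6 stood above 12-43, with a log2 difference of 0.95 (SE 0.19, limma adjusted p = 0.00422) that was 0.73 with the covariate.

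The remaining hydrophobins are family members known by number. Hyd9 was at 18.5 and 36.5 RPKM in 12-43 and at 0.696 and 0.493 RPKM in E6, where it had 2 reads in each library, a log2 difference of -4.55 (SE 0.33, limma adjusted p = 2.71e-05). Hyd4 was at 14.0 and 14.9 RPKM in 12-43 and at 1.65 and 3.26 RPKM in E6, a log2 difference of -2.33 (SE 0.27, limma adjusted p = 0.00029). Hyd4 in the knockout, at 14.97 and 11.6 RPKM, was near its level in 12-43, whereas Hyd9, at 2.68 and 2.08 RPKM, was below it. HYD2 was at 66.9 and 47.9 RPKM in 12-43, at 16.8 and 12.3 RPKM in E6, and at 0.754 and 2.35 RPKM in the knockout, so the 3 strains stood in 3 separate steps. Its log2 difference of -1.86 (SE 0.36, limma adjusted p = 0.00366) lost its call without E6 replicate 2 (adjusted p = 0.0547). Hyd1, at 7.01 and 5.62 against 4.09 and 1.78 RPKM, was the least certain of the 6 lower genes. Its log2 difference of -0.997 (limma adjusted p = 0.0278) lost its call with the covariate (0.102), without 12-43 replicate 1 (0.103) and without E6 replicate 2 (0.0791). Hyd5, at 15.1 and 20.05 against 13.5 and 10.7 RPKM, did not pass, with a log2 difference of -0.44 and a 95% interval of -0.99 to 0.11.

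**Figure D2:**
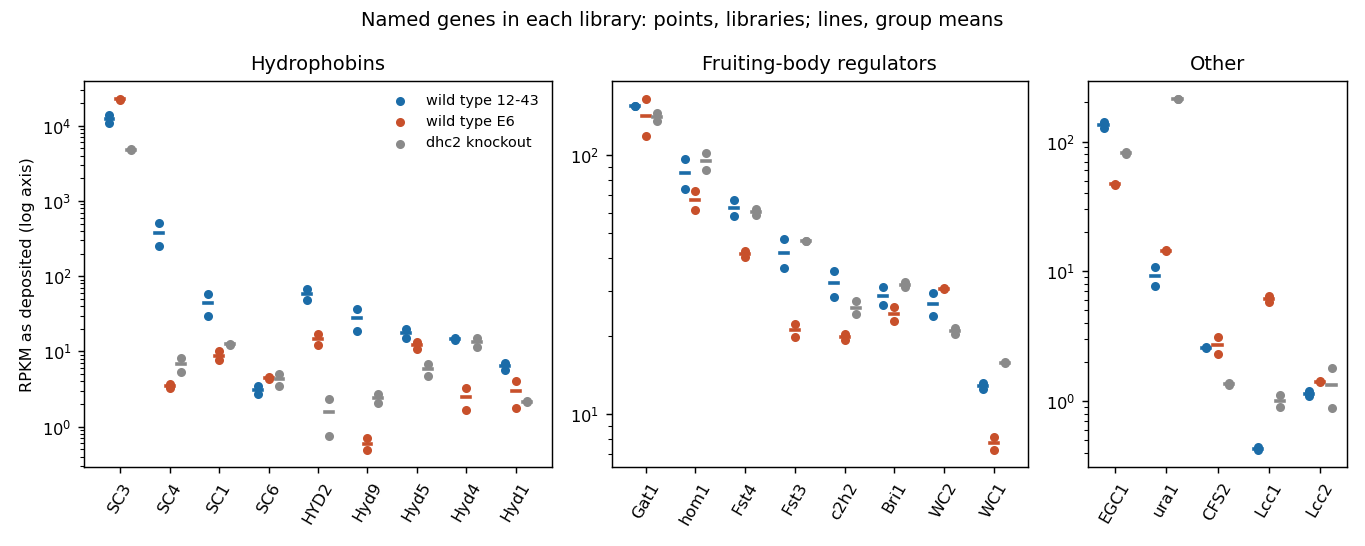
RPKM as deposited (log axis) of hydrophobins, fruiting-body regulators and other genes with a symbol, with 1 point for each of the 2 libraries of a strain and a line at their mean. SC4 stands at 251 and 509 RPKM in 12-43 (blue) and under 10 in E6 (orange) and the knockout (grey), while the regulators stay within a few fold of each other.

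All 8 regulators of fruiting-body formation with a symbol were tested: 4 were lower in E6, none was higher and 4 did not pass, with a median log2 difference of -0.38 against -0.0044 over all tested models. With 59.4% of all tested models called and 29.1% lower, the called share of these 8 genes was near the background. Fst3, a transcription factor that limits the number of fruiting bodies, was at 47.3 and 36.9 RPKM in 12-43 and at 19.95 and 22.3 RPKM in E6. The groups did not overlap, and the knockout, at 46.6 and 46.5 RPKM, lay at the level of 12-43. The log2 difference of Fst3 was -0.89 (SE 0.12, limma adjusted p = 0.00068). WC1, the blue-light receptor needed for light-induced fruiting, was at 13.2 and 12.5 RPKM in 12-43, at 7.29 and 8.16 RPKM in E6 and at 15.7 and 15.8 RPKM in the knockout. Its log2 difference was -0.62 (SE 0.12, limma adjusted p = 0.00384). The zinc-finger factor c2h2, which acts early in fruiting, differed by -0.59 (SE 0.13, limma adjusted p = 0.00593), from 35.8 and 28.3 to 19.3 and 20.5 RPKM. Fst4, a factor of the switch from vegetative growth to aggregates, differed by -0.50 (SE 0.09, limma adjusted p = 0.00289), from 67.0 and 58.2 to 40.4 and 42.7 RPKM. These 4 genes kept their call and direction under all 18 alternative settings.

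Among the regulators that did not pass was WC2, the partner of WC1. It was at 29.3 and 23.9 RPKM in 12-43 and at 30.5 and 30.7 RPKM in E6, so the E6 values were again apart from those of 12-43 but by little. Its log2 difference of 0.28 (95% interval 0.02 to 0.54, limma adjusted p = 0.0621) passed with the covariate (0.0291), without 12-43 replicate 1 (0.0297) and with a mean of at least 5 RPKM as the filter (0.0413). The transcription factor hom1, at 97.0 and 74.1 against 72.7 and 61.5 RPKM, differed by -0.26 (limma adjusted p = 0.158) and passed without 12-43 replicate 2 (0.0494) and with the replicate block (0.0452). For Gat1, a GATA-type factor, the 95% interval of the log2 difference was -0.42 to 0.29. For Bri1 it was -0.41 to 0.12.

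Of the 2 laccases, multicopper oxidases of phenolic compounds, Lcc1 was higher in E6 and Lcc2 did not pass. Lcc1 had 10 and 6 reads in 12-43, 86 and 135 reads in E6, and 21 and 25 in the knockout. In RPKM these are 0.439 and 0.422 for 12-43 against 5.76 and 6.40 for E6, a clear separation at a low level. The log2 difference was 2.88 (SE 0.17, limma adjusted p = 1.05e-05), and it ranged from 1.78 to 3.83 over the alternatives, since it depends on the pseudocount at this level. Lcc2 was at 1.19 and 1.10 RPKM in 12-43 and at 1.39 and 1.43 RPKM in E6, and the 95% interval of its log2 difference was -0.32 to 0.88.

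The remaining genes with a symbol were EGC1, ura1 and CFS2. EGC1 was at 128 and 142 RPKM in 12-43, at 46.2 and 47.3 RPKM in E6 and at 83.5 and 80.3 RPKM in the knockout. Its replicates lay close together in each strain, and its log2 difference was -1.44 (SE 0.10, limma adjusted p = 2.24e-05). The gene ura1, whose product acts in pyrimidine synthesis and which serves as a transformation marker, was at 7.74 and 10.8 RPKM in 12-43 and at 14.7 and 14.2 RPKM in E6, far from the 213 and 214 RPKM of the knockout. The log2 difference of ura1, 0.71 (SE 0.17, limma adjusted p = 0.00858), lost its call without E6 replicate 1 (0.0685) or E6 replicate 2 (0.0564). CFS2 did not pass, with a 95% interval of -0.32 to 0.55 for its log2 difference.

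B mating-type genes were mostly lower in E6, several of them with reads at or near 0 there. In the usual notation the labels give Bα2 with Bβ2 to 12-43 and Bα2 with Bβ1 to E6, so that genes named for Bβ2 belong to 12-43 by its label. Of 14 B genes with a symbol, 13 were tested: 10 were lower in E6, 2 higher and 1 did not pass, with a median log2 difference of -1.14, where 29.1% of all tested models were lower and 30.3% higher. With genes at 0 in E6 placed at their bound, and the bbp2 copy 17248 left out for having at most 2 reads in any wild-type library, the median over 12 genes was -0.98. The pheromone genes are short and alike, so their copies may share reads in unknown ways.

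Of the receptors, bbr2, the Bβ2 receptor by name, had 503 and 207 reads in 12-43 and 1 and 3 reads in E6, while bar3, named for a Bα specificity that the labels give to neither strain, had 311 and 166 reads in 12-43 and 351 and 444 in E6. Both had reads in both strains' libraries, but only for bbr2 was E6 near the floor. The log2 difference was -4.72 for bbr2 (SE 0.19, limma adjusted p = 2.30e-06) and 0.87 for bar3 (SE 0.14, limma adjusted p = 0.0013). Of the receptor-like genes, which resemble pheromone receptors but determine no known specificity, all 3 were lower in E6. The largest was that of brl1, from 6.75 and 4.95 to 2.02 and 2.45 RPKM (log2 difference -1.14, SE 0.17, limma adjusted p = 0.00111). The most abundant, brl3, went from 150 and 127 to 74.4 and 75.6 RPKM (log2 difference -0.80, SE 0.09, limma adjusted p = 0.000216). The last of them, brl4, differed by -0.42 (limma adjusted p = 0.0178), and its call was lost with the covariate (0.0691) and when any 1 of 12-43 replicate 1 (0.0715), E6 replicate 1 (0.075) and E6 replicate 2 (0.069) was left out.

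Reading along the gene order of the reference strain from brl1 to brl3, a stretch of 35 places, shows where the loss of reads was deepest. Of these 35 genes 23 were matched to a model and 13 of those carry a symbol. Of the 19 tested, 14 were lower in E6, 3 were higher and 2 did not pass, against 29.1% lower and 30.3% higher over all tested models. The deepest part was a block of 6 neighbours at places 6 to 11: bbp2-2, model 1238579, bbr2, bbp2-1, the bbp2 copy 251507 and model 60526. Summed over the block there were 980 and 477 reads in 12-43, 1963 and 1816 in the knockout, and 1 and 6 in E6. Both strains labelled Bβ2 thus read through the block, and E6 was close to 0 throughout.

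Within the block, the unnamed model 1238579, of 357 coding bases, lies directly beside bbr2 and behaved as its named neighbours did. It had 267 and 152 reads in 12-43, 394 and 310 in the knockout and 0 in both E6 libraries, so that with 3 reads allowed per E6 library it was at least 65.3-fold lower there. For the pheromone gene bbp2-1 the reads were 109 and 63 against 0 and 0, at least 26.9-fold lower, and for the bbp2 copy 251507 they were 27 and 17 against 0 and 0, at least 6.94-fold lower. Its family member bbp2-2 had 38 and 19 reads in 12-43 against 0 and 1 in E6, a ratio of 55.5 per read of the denominators (exact 95% counting interval 9.57 to 2230). Model 60526, at the far edge, had 36 and 19 reads in 12-43 and 0 and 2 in E6, a ratio of 26.8 (7.07 to 227). How far the sequences of either strain depart from the reference models was not analysed here, so in this stretch lower expression and diverged or missing sequence cannot be told apart.

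**Figure D3:**
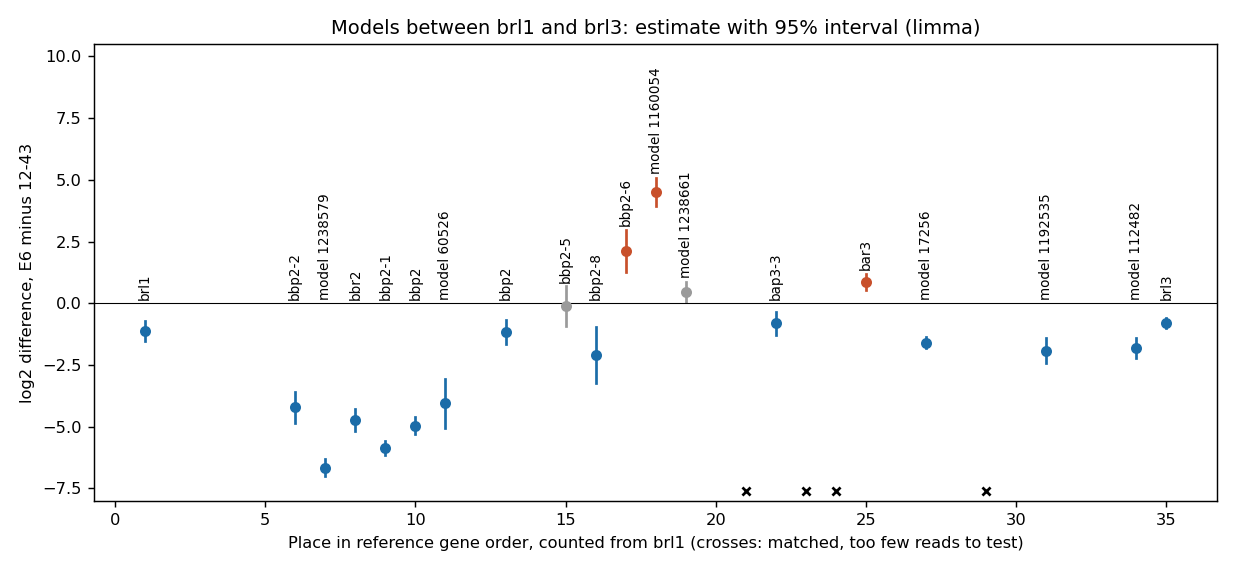
Log2 difference E6 minus 12-43 for the 19 tested models between brl1 and brl3, by place in the reference gene order, with the 95% interval of the limma estimate. Blue points are lower in E6, orange higher and grey not past the threshold, and crosses mark the 4 matched models with too few reads. Places 6 to 11 all lie at or below -4.05, whereas bbp2-6 and model 1160054 lie above 0; fitted values of models at 0 reads in E6 depend on the pseudocount.

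Beyond the block, the bbp2 copy 17248 had 2 and 2 reads in 12-43 and 0 in E6, too few for a fold. At place 16, bbp2-8 had 18 and 5 reads in 12-43 and 0 and 3 in E6, a ratio of 7.46 (exact 95% counting interval 2.26 to 38.8). Its neighbour bbp2-5, which did not pass, had 0 and 1 reads in both wild types against 38 and 44 in the knockout, and bap3-1 had no reads in any library.

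The next places turned the order of the strains. At place 17, bbp2-6 had 3 and 3 reads in 12-43, 11 and 18 in the knockout, and 10 and 28 in E6 (log2 difference 2.12, SE 0.36, limma adjusted p = 0.00186). Its direct neighbour, model 1160054, of 159 coding bases, had 2 and 2 reads in 12-43, 2 and 2 in the knockout, and 43 and 87 in E6. In that model E6 stood alone, by a log2 difference of 4.51 (SE 0.24, limma adjusted p = 6.36e-06), which ranged from 3.62 to 4.91 over the alternatives. Next to it, model 1238661 had similar levels in the wild types, with 16.9 and 16.7 RPKM in 12-43 and 19.1 and 24.8 RPKM in E6. The log2 difference between them, 0.44, did not pass (limma adjusted p = 0.0605), though it did under 5 of 18 alternatives (adjusted p = 0.0304 with voom), and its knockout level was 3.81 and 2.99 RPKM. Towards brl3, the pheromone gene bap3-3 was lower in E6 (log2 difference -0.82, SE 0.19, limma adjusted p = 0.00845). So were the unnamed models 17256, 1192535 and 112482, with log2 differences of -1.60, -1.92 and -1.80, each with at least 43 reads in every library. The lower values in this stretch were therefore not limited to genes named for Bβ2.

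The unnamed models of the B stretch raised the question whether differences between the strains generally ran in neighbours, which was examined after the B stretch had been seen. The pairs include those of the B stretch itself, and values without them were not computed. Over directly adjacent pairs of matched models (688 pairs), the log2 differences correlated at 0.405. The correlation was 0.268 at 2 places apart, 0.213 at 3 to 5 places, and 0.091 at 21 to 50 places. Replicate ratios gave no such rise: over the same adjacent pairs they correlated at 0.061 in 12-43 and 0.015 in E6. Adjacent pairs were called in the same direction in 26.02% and in opposite directions in 14.1%, against 21.3% and 17.0% at 21 to 50 places. These are descriptions across genes, which are not independent replicates and share libraries, and tandem copies or overlapping models can share reads. With 2989 of the tested models matched, gaps in the order are many, and the order in E6 and 12-43 may differ from that in the reference strain.

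**Figure D4:**
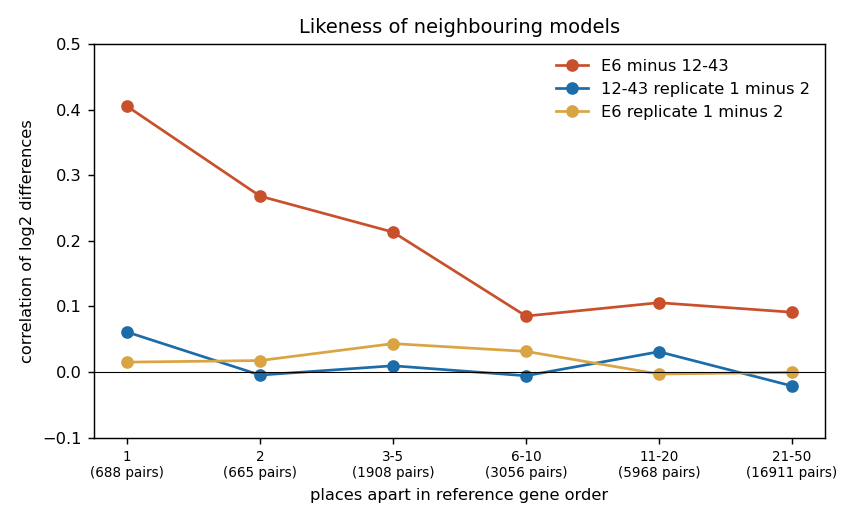
Correlation across pairs of models (y axis) of the log2 difference between strains (orange) and of the log2 ratio between replicates of 12-43 (blue) and E6 (yellow), by distance in the reference gene order (x axis, with the number of pairs). The strain difference falls from 0.405 in adjacent models to 0.091 at 21 to 50 places, and the replicate ratios stay near 0. Pairs of the B stretch are included.

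Runs of neighbours with large differences were collected by a rule set after the values were seen: at least 3 successive matched and tested models, at most 10 places apart, each called and at least 4-fold different in the same direction. Among the 2989 matched models 148 were at least 4-fold higher in E6 and 143 at least 4-fold lower, where over all tested models the shares were 5.36% and 3.67%. There were 9 runs with 35 models in all, 7 runs higher in E6 and 2 lower, of which the B block was 1. None of the models outside the B block carries a name in the table used, and all are given here by number, chosen after their values were seen.

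Besides the B block, 1 run held 6 models, within 7 places, and at all but its first model reads were near the floor in both other strains. Model 269862, of 1842 coding bases, had 3 and 2 reads in 12-43, 7 and 3 in the knockout, and 255 and 389 in E6. Model 104345 had 2 and 2 reads in 12-43, 1 and 2 in the knockout, and 203 and 250 in E6. Both strains with the mating type of 12-43 were thus near the floor while E6 was not, and the log2 differences were 4.76 (SE 0.18, limma adjusted p = 1.80e-06) and 4.02 (SE 0.18, limma adjusted p = 3.14e-06). Model 269864 followed the same pattern, with 2 and 0 reads in 12-43 against 141 and 239 in E6, a ratio of 195 (exact 95% counting interval 53.7 to 1617). Models 269858 and 269851 had 0 reads in 12-43 and were, by the same floor, at least 17.8-fold and at least 20.6-fold higher in E6. The first model of the run, 231700, differed from the others in having reads in all strains: 24 and 169 in 12-43, 237 and 177 in the knockout, and 323 and 613 in E6. Its log2 difference of 2.77 lost its call without E6 replicate 1 (limma adjusted p = 0.139) or E6 replicate 2 (limma adjusted p = 0.182), and it was 1.10 with the covariate.

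The other 6 runs that were higher in E6 had a different shape, in that the knockout had reads as well and 12-43 stood at the low end. In one of them, 4 models within 14 places, model 1120486 had 1 and 0 reads in 12-43, 210 and 312 in E6, and 345 and 365 in the knockout. That is a ratio of 536 between the wild types (exact 95% counting interval 95.8 to 21216). Model 1198424, next to it, had 0 reads in both 12-43 libraries, 23 and 32 in E6, and 20 and 15 in the knockout, at least 8.92-fold higher in E6. The last member, model 53710, was read in all strains, at 8.63 and 6.50 RPKM in 12-43, 55.6 and 61.1 RPKM in E6, and 69.8 and 66.2 RPKM in the knockout (log2 difference E6 minus 12-43 2.96, SE 0.13, limma adjusted p = 2.91e-06). Summed over each of these 6 runs, 12-43 had between 1 and 200 reads in a library, E6 between 78 and 1733, and the knockout between 67 and 2034. The knockout carries the labelled mating type of 12-43, and the part of mating type or background in these runs was not tested.

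The run that was lower in E6 outside the B locus held 3 models within 4 places. Model 59389 was at 174 and 162 RPKM in 12-43, 19.1 and 19.8 RPKM in E6, and 6.63 and 8.35 RPKM in the knockout (log2 difference -2.999, SE 0.12, limma adjusted p = 2.23e-06). Its neighbour, model 237183, fell from 332 and 196 reads to 4 and 4, and model 59535 from 396 and 204 to 46 and 69. Here 12-43 was the high strain, and E6 and the knockout were both low.

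**Figure D5:**
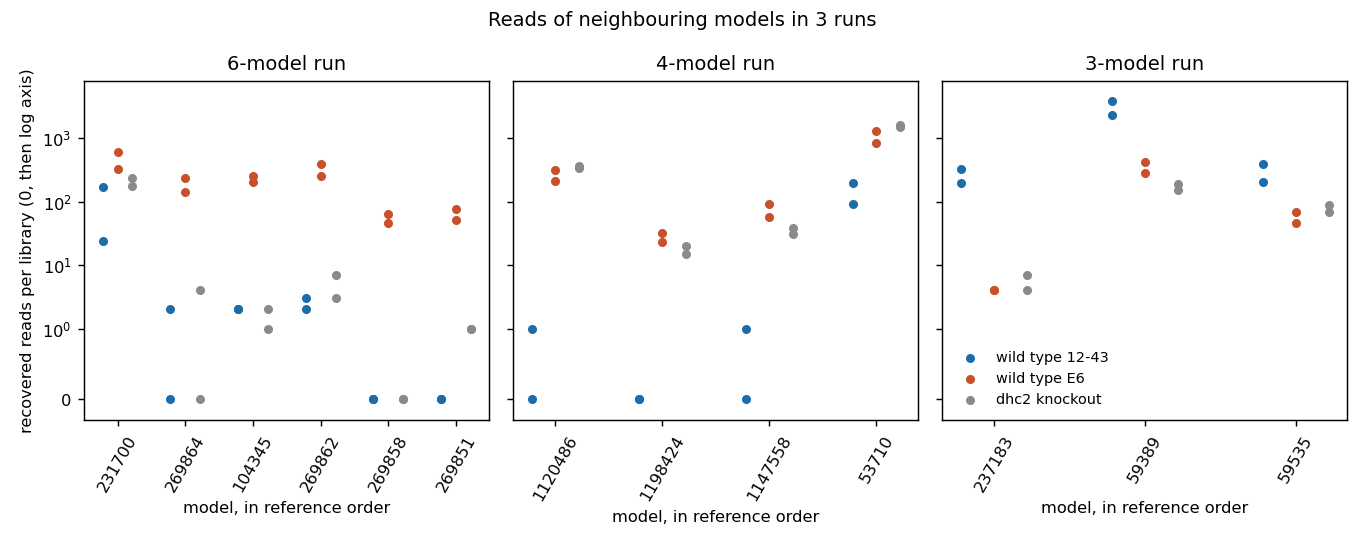
Recovered reads per library (0, then a log axis) of the models in 3 runs, in reference order, for 12-43 (blue), E6 (orange) and the knockout (grey). In the 6-model run E6 is the only strain well above the floor at all models but the first, in the 4-model run 12-43 is the low strain, and in the 3-model run 12-43 is the high strain.

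Models read in one strain and at 0 in the other were counted over all models, members of the runs included. Asking for at least 50 reads in each library of one strain and 0 in both of the other, 34 models were read in E6 and at 0 in 12-43, and 16 were read in 12-43 and at 0 in E6. Of the 34, the knockout had at least 50 reads in both libraries for 9 and 0 reads for 13. Of the 16, the knockout had at least 50 reads in both libraries for 10 and 0 reads for 1. Whether these models are silent or lack a matching sequence in a strain was not tested.

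The largest single differences set models near the floor in one strain against abundant transcripts in the other. Model 1190086, of 1731 coding bases, had 3 and 7 reads in 12-43, 8 and 3 in the knockout, and 7265 and 12647 in E6. Its level in E6, at 456 and 561 RPKM, was well above that of most models, and the log2 difference was 9.41 (SE 0.25, limma adjusted p = 6.22e-07). Model 1211065 had 5 and 3 reads in 12-43, but 1666 and 2447 in E6 and 3552 and 3175 in the knockout (log2 difference 7.72, SE 0.10, limma adjusted p = 1.19e-07). In the other direction, model 1081190, of 207 coding bases, had 2604 and 1485 reads in 12-43 and 1 and 3 in E6 (log2 difference -9.32, SE 0.25, limma adjusted p = 6.22e-07). Its knockout reads, 297 and 193, lay between the wild types. Model 1098759, of 177 coding bases, had 1408 and 884 reads in 12-43, 511 and 409 in the knockout, and 1 and 1 in E6. The ratio of 12-43 over E6 was 1116 (exact 95% counting interval 309 to 9219).

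The 6 models with the highest mean RPKM were the same in E6 and 12-43, and 2 of them passed the test. Of all tested models 59.4% passed, and of those above 1000 RPKM 46.7%. Besides SC3, model 82353, of 288 coding bases, was higher in E6, at 44855 and 41844 RPKM against 14332 and 18548 RPKM in 12-43. In the knockout it was at 3332 and 3210 RPKM, so that the 3 strains were well apart, and the log2 difference between the wild types was 1.49 (SE 0.20, limma adjusted p = 0.000635). The most abundant model of all, 1193825, was at 32685 and 102666 RPKM in 12-43 and at 122243 and 59718 RPKM in E6. Its replicates differed by more than its strain means, and its log2 difference of 0.64 (SE 0.59, limma adjusted p = 0.38) did not pass, and its direction depended on the 12-43 library used: it was 1.51 without 12-43 replicate 2 (limma adjusted p = 0.0342) and -0.23 with the covariate (limma adjusted p = 0.72). In both strains the high library of this model was the one with the smaller read denominator, 12-43 replicate 2 and E6 replicate 1, and the part of depth in it was not tested. Model 1057308 had the same order of libraries, with 28036 and 79270 RPKM in 12-43 and 78676 and 38515 RPKM in E6, and did not pass (log2 difference 0.30, limma adjusted p = 0.657; -0.49 with the covariate). Model 1265485, at 10336 and 13733 RPKM in 12-43 and 16474 and 14353 RPKM in E6, differed by 0.45 (limma adjusted p = 0.0894) and passed without 12-43 replicate 2 (limma adjusted p = 0.0176) and with voom (adjusted p = 0.0214).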

How the data were processed

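The authors deposited, per the file headers, RPKM with a decimal comma for 14652 gene models in each of 6 libraries, with FastQC 0.9.2 output on the raw reads attached (17735309 to 25842890 per library). Per the labels' protocols, RNA was isolated with a plant RNA kit and sequenced as single reads of 50 bases. TopHat, DESeq and edgeR appear in the submitters' processing notes without roles. The counting rules, strand use, annotation and genome build behind the RPKM are not given in the sources used, so overlapping models and near-identical copies may share reads.

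RPKM values were whole multiples of a step, from which the reads, the denominators (46.0% to 58.7% of raw reads) and the coding lengths were solved. All 13715 models above 0 came out whole (tolerance 0.005 reads plus rounding), and 937 were at 0 in every library. On simulated RPKM all 6 denominators were exact, and reads were exact for 99.1% of models with reads in all libraries and too low for 0.866%. Reads of models that share a factor are lower bounds, while their ratios hold. Counting intervals are exact binomial and, like the floor of 3 reads, cover counting error only.

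Since RPKM are not counts, models were fitted with limma 3.58.1 under R 4.3.3 on log2(RPKM + 0.5), scaled by trimmed means of M values (factors 0.961 to 1.05), with trended variance, group as the only term and all 6 libraries sharing 1 spread (3 residual degrees of freedom). Fold changes on this scale are understated for low models. Models were tested with at least 10 reads at the median depth in 2 libraries and 15 reads in all. Benjamini-Hochberg adjustment ran over 12484 models, with a threshold of 0.05, and 7988 were under an unadjusted 0.05. On simulated data for this comparison (12484 models, 200 changed), limma found 77% of the 2-fold and 99% of the 4-fold changes, and 9.74% of calls were false. The simulation changed only these 200 models and gave all models the same spread, whereas 59.4% of the real models were called. Its rates therefore do not carry over to the real comparison. Replicates differed by more than counting noise (chi-square per model 34.0 for 12-43 and 18.6 for E6), so none were merged in the limma fits. The ratios with counting intervals do use reads summed over the 2 libraries of a strain, and so leave out this spread. Same-numbered replicates did not deviate together (correlation 0.025 for 12-43 and E6). The labels name no shared culture or day for a replicate number, so the fit did not pair the samples by it. With 2 libraries a strain, this correlation cannot settle whether the numbers pair them.

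Locus tags linked the identifiers to RefSeq's gene table for strain H4-8 (assembly Schco3), used for names and gene order only: 3636 matched, 39 of them with a symbol. The table gives no products, so 30 of 35 planned gene lists had no member, the A mating-type genes among them, and the 5 with members are the ones described. The identifier of dhc2 has no name there, so the knockout label was not checked. Named genes are all tested genes with a symbol in those lists, the largest rises and falls with a symbol, the most abundant called genes with a symbol, and at most 2 rises and 2 falls without a name. Unnamed models of the B stretch, of the runs and among the most abundant transcripts are given beyond this rule. Members, lists and tests were chosen with earlier results of these data known.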

Additional observations from a re-analysis of the deposited data

How the results depend on the processing

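Over 18 alternatives (scaling, pseudocount, read filter, variance trend, voom, covariate, replicate block, only the 4 wild-type libraries, and each library left out) the number of models called ranged from 6085 to 7589 against 7420, those higher in E6 from 3099 to 3920 and those lower from 2986 to 4016, and all stayed within 1.5 times. At 2-fold or more they ranged from 1364 to 1992 higher and from 994 to 1480 lower. Leaving out each library in turn gave 6085 to 7196 calls (3099 to 3735 higher, 2986 to 3461 lower; at 2-fold 1727 to 1941 and 1318 to 1406). The replicate block gave 7223 calls, 3712 higher and 3511 lower, and changed the call of hom1 and SC6 among genes with a symbol. Of 35 tested genes with a symbol 28 kept their call throughout, and over 622 gene and setting pairs 10 calls were lost, 7 gained and none reversed. The abundant model 1111327, of 153 coding bases, was at 3450 and 22182 RPKM in 12-43 and 8509 and 5703 RPKM in E6. Its log2 difference of -0.25 became 1.13 without 12-43 replicate 2 (limma adjusted p = 0.0126) and -1.63 with the covariate (limma adjusted p = 0.00344). The correlation of adjacent models was 0.341 with a pseudocount of 2. Short models and those with few reads are limited most by depth, and the 2 libraries a strain limit all comparisons.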

Other observations

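The direction of the strain difference went with the coding length of the model. The median log2 difference was 0.34 in the 593 tested models of up to 300 coding bases, 0.17 between 300 and 600, 0.097 between 600 and 1000, -0.027 between 1000 and 1500, -0.085 between 1500 and 2500, and -0.17 in the 1334 models above 2500. Replicates of one strain showed length trends too: the median log2 ratio of 12-43 replicate 1 over replicate 2 went from -0.16 in the shortest to 0.11 in the longest class, and that of E6 replicate 1 over replicate 2 from 0.11 to -0.085. The strain difference had the same trend in pairs of single libraries, from 0.30 to -0.18 for E6 replicate 1 minus 12-43 replicate 2 and from 0.38 to -0.19 for E6 replicate 2 minus 12-43 replicate 1. The called share was 62.2% in the shortest and 58.9% in the longest class. The part of coding length in the differences of single genes was not tested; the tested hydrophobin and pheromone genes have 126 to 564 coding bases, and most were lower in E6, where the medians of their length classes were above 0.

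The share of the depth denominator, not of the raw reads, held by the 10 most abundant models was 5.69% and 9.64% in the 12-43 libraries. It was 11.5% and 8.45% in E6, and 6.07% and 6.20% in the knockout. Model 1193825 alone held 1.29% and 4.07% in 12-43 and 4.84% and 2.36% in E6.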
